A study of Rattus norvegicus with 11 samples.

Results

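The transcripts described here are those of 5 inflammatory cytokines (Il1b, Il6, Tnf, Il10 and Il18) and 4 cytokine receptor chains (Il6r, Il6st, Tnfrsf1a and Tnfrsf1b) in rat trigeminal ganglia (TRG) on day 7 of an inflammation of the face. Probes were assigned to these 9 genes by RefSeq accession, and each gene had 1 probe with 1 spot on the array, out of 24684 probes and 13888 named genes in all. The ganglia were taken from male Wistar rats in which 1 whisker pad had been inflamed with Freund's complete adjuvant (CFA, a suspension in oil of killed mycobacteria, 50 μl of 1 mg/ml given under the skin), under ketamine and xylazine anaesthesia. Arrays of 6 CFA (ipsilateral) ganglia, from rats 1, 2, 3, 5, 6 and 8, were compared with arrays of 5 contralateral ganglia, from rats 1, 2, 3, 5 and 6. The contralateral ganglia therefore came from rats that also carried the inflammation and the anaesthesia, and no array of an untreated rat was analysed here. The design gives 8 rats, and the remaining ganglia were not analysed here. All values are log2 intensities of a single-colour array, normalized between arrays by quantiles, and a difference is CFA minus contralateral on that scale. The intensities of different probes cannot be set against each other, so levels are compared only between arrays.

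Interleukin-1β, encoded by Il1b, and interleukin-18, encoded by Il18, are made as inactive precursors that caspase-1 cleaves in the inflammasome. Interleukin-6 binds its receptor chain Il6r and signals through Il6st, the chain shared by its family, to JAK kinases and STAT3, while tumour necrosis factor (Tnf) acts through the broadly expressed Tnfrsf1a and the more restricted Tnfrsf1b to activate NF-kB. Interleukin-10 (Il10) restrains the production of these cytokines by macrophages. In sensory ganglia interleukin-1β, interleukin-6 and tumour necrosis factor are known to increase the excitability of nociceptive neurons. A ganglion holds neurons, glia, resident macrophages and blood vessels, and in such bulk RNA fewer cells of a type and less RNA per cell cannot be told apart.

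Arrays with the same scan time in the scanner output were taken as 1 slide, which gave 5 slides scanned on 3 days. Slide membership was thus inferred and not read from a label. Only slide 2 held both sides (CFA of rat 1, contralateral of rats 5 and 6). Slides 1 (rat 3) and 3 (rats 1 and 2) held contralateral arrays, and slides 4 (rats 2 and 3) and 5 (rats 5, 6 and 8) CFA arrays, so that elsewhere slide and side cannot be told apart. The median processed signal was 74.6 to 117 on the CFA arrays and 87.9 to 96.4 on the contralateral arrays. Of the spots, 68.9% to 82.3% on a CFA array and 71.6% to 82.8% on a contralateral array were well above background by the scanner software. Of 10 sensory neuron markers 9 were measured, and all 9 were well above background on every array. Differences also followed the position of a spot on the array. Among dim spots, the median difference was 0.33 in the first of 20 bands of rows and -0.45 in the band that holds rows 426 to 452, against -0.04 over all probes.

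None of the 9 genes differed between the sides at the threshold of the study, an unadjusted p of 0.05 or less with an absolute fold change over 2. Over all probes this threshold was passed by 2.02% (1.15% higher, 0.863% lower on the CFA side), so a list of this length need not hold any. In limma the adjusted p of the 9 genes lay between 0.448 and 0.953, and the smallest over all probes was 0.0677. At an unadjusted p of 0.05 or less, without the fold limit, 1 gene of 9 passed (Il10, lower), where 10.8% of all probes did (4.02% higher, 6.75% lower on the CFA side). The CFA and contralateral arrays overlapped for all 9 genes, while they were apart for 1.2% of all probes. The difference was negative for 5 genes and positive for 4, with a median of -0.23, and 57.5% of all probes had a negative difference. For 7 of the 9 genes the 95% interval of the difference lay wholly within a fold change of 2 in either direction, and Il1b and Il6 were the exceptions. With slide as a random effect this held for 6 genes.

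**Figure D1:**
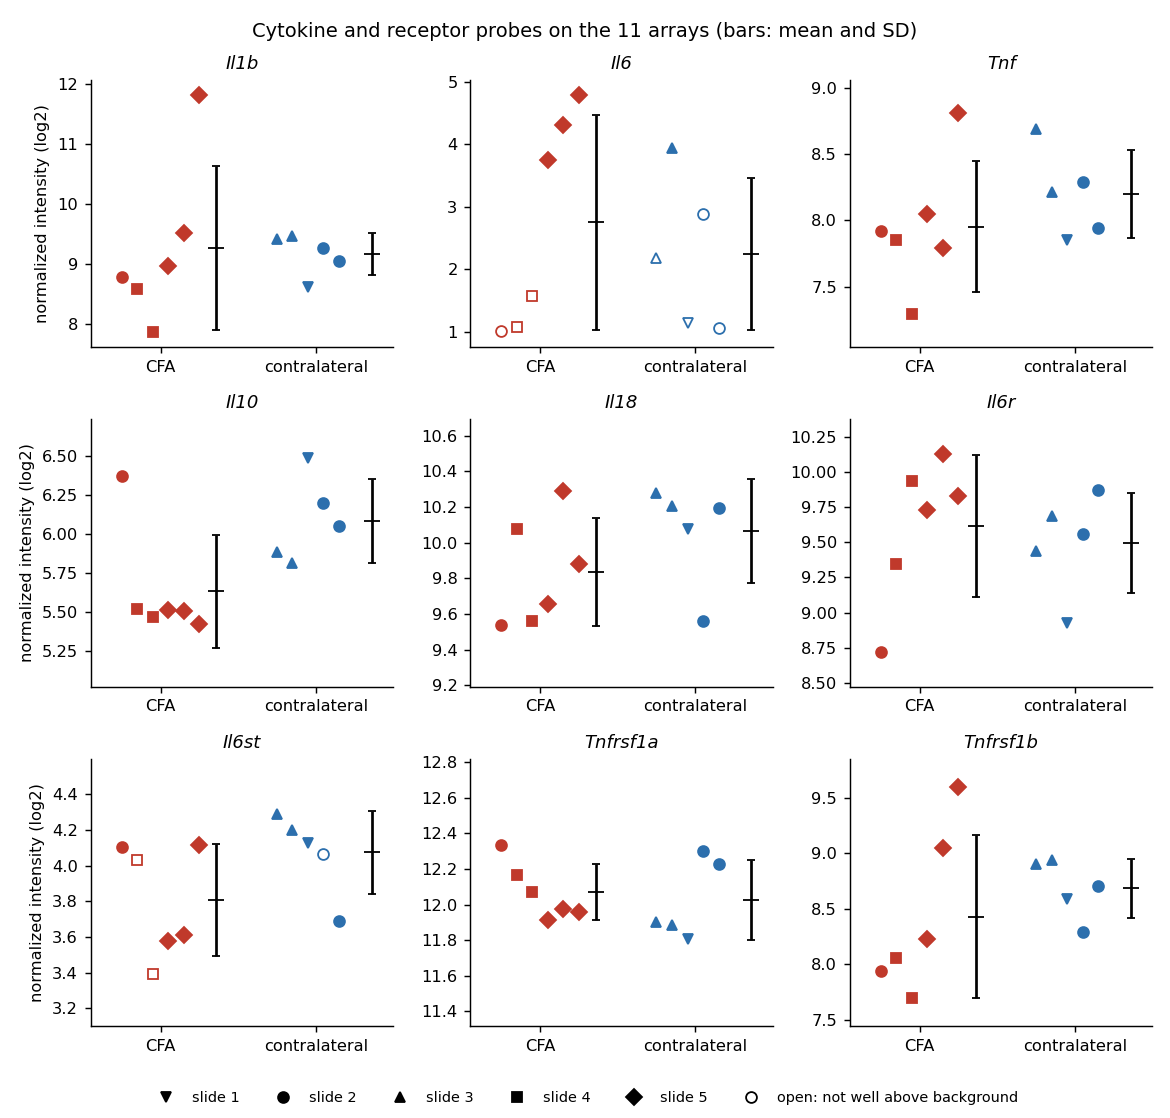
Normalized log2 intensity of each cytokine and receptor probe on the 6 CFA and the 5 contralateral arrays, with 1 point per ganglion, the slide shown by the marker and the group mean and SD as bars. The groups overlap in every panel, Il1b and Tnfrsf1b are highest on the CFA array of rat 8, and the open points of Il6 are arrays on which its spot was not well above background.

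Il1b was detected well above background on every array and varied more among the CFA ganglia than among the contralateral ganglia. It had 8.79, 8.59, 7.86, 8.97, 9.53 and 11.83 in the CFA ganglia of rats 1, 2, 3, 5, 6 and 8, against 9.43, 9.47, 8.61, 9.27 and 9.05 in the contralateral ganglia of rats 1, 2, 3, 5 and 6. The CFA ganglion of rat 8 was thus the highest of all, while those of rats 2 and 3 were the lowest. The means were 9.26 ± 1.37 (SD, n = 6) in CFA ganglia and 9.17 ± 0.35 (SD, n = 5) in contralateral ganglia, a difference of 0.09 (standard error 0.58, adjusted p = 0.953 from limma). Its 95% interval, -1.18 to 1.37, includes a doubling as well as a halving. Without the CFA array of rat 8 the difference was -0.42 (unadjusted p = 0.178, adjusted p = 0.576 from limma). Within rats, the CFA side was lower in 4 of the 5 rats with both sides and higher in rat 6.

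Tnf was likewise detected on every array, and its CFA side was the lower one in each of the 5 rats with both sides. It had 7.92, 7.85, 7.29, 8.05, 7.79 and 8.81 in the CFA ganglia of rats 1, 2, 3, 5, 6 and 8, against 8.69, 8.21, 7.85, 8.29 and 7.94 in the contralateral ganglia of rats 1, 2, 3, 5 and 6. The highest value was again that of the CFA ganglion of rat 8. The difference of the means was -0.25 (standard error 0.24, adjusted p = 0.687 in limma). A two-sided exact permutation test over the 462 splits of the arrays gave p = 0.355. The differences within rats lay between -0.77 and -0.15. Of the 9 genes, 2 (Tnf and Il6st) were lower on the CFA side in all 5 rats, as were 8.39% of all probes. With the rat as a replicate block, which leaves rat 8 out of the contrast, Tnf had a difference of -0.42 (unadjusted p = 0.0158, adjusted p = 0.452 from limma), and 2 of 9 genes had an unadjusted p of 0.05 or less, against 9.9% of all probes. The difference of Tnf was -0.11 without the CFA array of rat 3, -0.42 without that of rat 8 and -0.073 with the median deviation of bands of array rows removed.

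Il6 was detected on the fewest arrays of the 9 genes, and all its CFA arrays with detection lay on 1 slide. Its spot was detected on 3 of 6 CFA arrays, those of rats 5, 6 and 8, which made up slide 5, and on 1 of 5 contralateral arrays, that of rat 2. Its values were 1.01, 1.08, 1.58, 3.75, 4.31 and 4.78 in the CFA ganglia of rats 1, 2, 3, 5, 6 and 8, against 2.19, 3.94, 1.15, 2.89 and 1.06 in the contralateral ganglia of rats 1, 2, 3, 5 and 6. Values that were not well above background have no reliable order. The difference of the measured means was 0.50 (standard error 0.84, adjusted p = 0.816 in the limma fit) with an interval of -1.34 to 2.35. With slide as a random effect it was 0.0037, and on slide 2, where neither side was well above background, it was -0.97. Slide and side cannot be told apart for the arrays on which Il6 was detected on the CFA side.

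Il10, the anti-inflammatory cytokine of the set, was well above background on every array and was lower on the CFA side in 4 of 5 rats. It had 6.37, 5.52, 5.47, 5.51, 5.51 and 5.42 in the CFA ganglia of rats 1, 2, 3, 5, 6 and 8, against 5.88, 5.81, 6.49, 6.20 and 6.05 in the contralateral ganglia of rats 1, 2, 3, 5 and 6. The CFA ganglion of rat 1 lay among the contralateral ganglia, and the other 5 CFA ganglia lay below all of them. The difference was -0.45 (standard error 0.19, a CFA level of 0.73 times the contralateral one, unadjusted p = 0.0351, adjusted p = 0.448 in limma). Its two-sided exact permutation test gave p = 0.0541. Without the CFA array of rat 1 it was -0.60 (adjusted p = 0.0833 from limma). That array lay on slide 2, and there Il10 was 0.25 higher on the CFA side. The probe lies in row 432 of the array, and the 1376 spots of like signal within 25 rows of it had a median difference of -0.25. With the median deviation of each band of rows removed from each array, the difference of Il10 was -0.19 (adjusted p = 0.698 from limma). The parts of slide and position in the value were not tested beyond these figures.

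Il18 had a narrow range on both sides. It had 9.54, 10.08, 9.56, 9.66, 10.29 and 9.88 in the CFA ganglia of rats 1, 2, 3, 5, 6 and 8, against 10.28, 10.21, 10.08, 9.56 and 10.20 in the contralateral ganglia of rats 1, 2, 3, 5 and 6. The CFA ganglia were spread over the whole range, while 4 of the 5 contralateral ganglia lay close together at its upper end and that of rat 5 near its lower end. The difference was -0.23 (standard error 0.17, adjusted p = 0.607 in limma, interval -0.62 to 0.15), and rats 1, 2 and 3 had a lower CFA side and rats 5 and 6 a slightly higher one. Without the contralateral array of rat 5 the difference was -0.36 (unadjusted p = 0.0466, adjusted p = 0.378 from limma).

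The receptor chains of interleukin-6 were measured with unequal certainty. Il6r was detected on every array, with 8.72, 9.35, 9.93, 9.73, 10.13 and 9.83 in the CFA ganglia of rats 1, 2, 3, 5, 6 and 8, against 9.44, 9.69, 8.92, 9.56 and 9.87 in the contralateral ganglia of rats 1, 2, 3, 5 and 6. The lowest value was that of the CFA ganglion of rat 1 and the highest that of rat 6. The difference was 0.12 (standard error 0.25, adjusted p = 0.855 from limma), and within slide 2, which holds that lowest array, it was -0.99. With slide as a block, a fit in which slide 2 alone carries the contrast, its unadjusted p was 0.0118 (adjusted p = 0.492 from limma). Il6st, the signalling chain, was detected on 4 of the 6 CFA and 4 of the 5 contralateral arrays. It had 4.11, 4.03, 3.39, 3.58, 3.61 and 4.12 in the CFA ganglia of rats 1, 2, 3, 5, 6 and 8, against 4.29, 4.20, 4.12, 4.07 and 3.69 in the contralateral ganglia of rats 1, 2, 3, 5 and 6. Its CFA side was lower in all 5 rats, and the difference of -0.27 (standard error 0.17, adjusted p = 0.547 from limma) became -0.33 with the rat as a replicate block (unadjusted p = 0.0459, adjusted p = 0.500). The spots near it on the array had a median difference of the opposite sign, 0.16.

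The receptors of tumour necrosis factor differed in how much they varied. Tnfrsf1a, which carries a death domain, had the smallest spread of the 9 genes on the CFA side, with 12.33, 12.17, 12.07, 11.92, 11.98 and 11.96 in the CFA ganglia of rats 1, 2, 3, 5, 6 and 8, against 11.90, 11.88, 11.80, 12.30 and 12.23 in the contralateral ganglia of rats 1, 2, 3, 5 and 6. Its 3 highest values were those of the 3 arrays of slide 2, of either side. The difference was 0.05 (standard error 0.12, adjusted p = 0.882 from limma), and its interval of -0.22 to 0.31 was the narrowest of the set. Tnfrsf1b, a receptor of immune and endothelial cells without a death domain, had 7.94, 8.05, 7.70, 8.22, 9.05 and 9.60 in the CFA ganglia of rats 1, 2, 3, 5, 6 and 8, against 8.90, 8.94, 8.59, 8.29 and 8.70 in the contralateral ganglia of rats 1, 2, 3, 5 and 6. The CFA ganglia of rats 6 and 8 lay above all contralateral ganglia and the other 4 CFA ganglia below all of them. The difference was -0.26 (standard error 0.32, adjusted p = 0.752 from limma), and -0.49 without the CFA array of rat 8 (unadjusted p = 0.0707, adjusted p = 0.494 from limma). It was -0.11 without the CFA array of rat 3 and -0.091 with row bands removed.

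**Figure D2:**
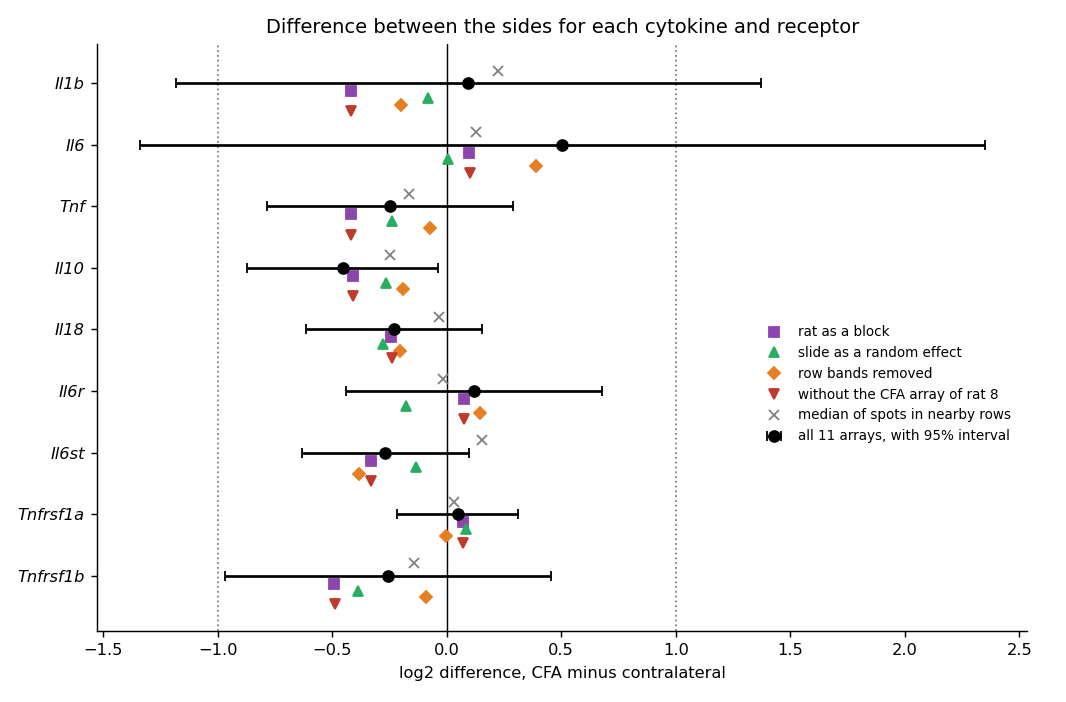
Log2 difference, CFA minus contralateral, of each cytokine and receptor with its 95% interval (black), with the values under other fits (coloured) and the median difference of the spots in nearby rows (grey crosses). Dotted lines mark a fold change of 2, and the intervals of Il1b and Il6 alone reach beyond them. The value of Il1b is 0.09 with all arrays and -0.42 without the CFA array of rat 8.

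The CFA ganglion of rat 8 had the highest level of 4 of the 9 genes (Il1b, Il6, Tnf and Tnfrsf1b), and the contralateral ganglion of this rat was not analysed here. Of the 7 genes that were well above background on every array, 3 were highest on this array, where 11.1% of the 11085 named genes detected in that way were. Il1b was 2.82 above the median of the other 10 arrays, a ratio of 7.06, and 2.30 above the next highest. In raw processed signal it had 4589 on this array, and at most 971 on any other. Tnfrsf1b was 1.16 and Tnf 0.88 above the median of the others, but Tnf exceeded the next array by only 0.12. Il6 was 0.47 above the next array. Il10, Il18, Il6r, Il6st and Tnfrsf1a were not highest there, and Il10 was the lowest of all 11.

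Cxcl2 and Ccl3, chemokine genes that interleukin-1β and tumour necrosis factor are known to induce, were highest on the same array and were also among the 3 genes most like Il1b over the 11 arrays, by a likeness that this array enters. Cxcl2, which attracts neutrophils, had 11.70 in the CFA ganglion of rat 8 and 5.03 to 6.70 on the other 10 arrays. Ccl3, which attracts monocytes, had 10.84 there and 7.10 to 8.58 elsewhere. By the difference from the median of the other arrays, Cxcl2, Ccl3 and Il1b ranked 1, 2 and 3 among the 11085 genes. Il1a, well above background on only 6 arrays and so not ranked, had 8.08 in the CFA ganglion of rat 8 and 2.36 to 4.72 elsewhere. The interleukin-1 receptor antagonist Il1rn, named after its values were seen, had 10.77 in that ganglion and 7.55 to 9.51 elsewhere. Ccl2 (13.24) and Icam1 (9.38), also known as induced genes, lay within the range of the other arrays, and the spot of Ptgs2 was well above background on no array. The genes of the cytokine-induced list that were well above background on all arrays numbered 19. Of these, 5 were highest on this array, Cxcl2 and Ccl3 among them, against 11.1% of the 11085 genes. The median difference of the 19 from the median of the other arrays was 0.20. Of the 11085 genes, 15 exceeded the median of the other arrays by more than 2 on this array, where the other 10 arrays had 2 to 48 such genes. Il6 (2.90) and Il1a (4.16) did so too, but were not well above background on every array and are outside this count.

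**Figure D3:**
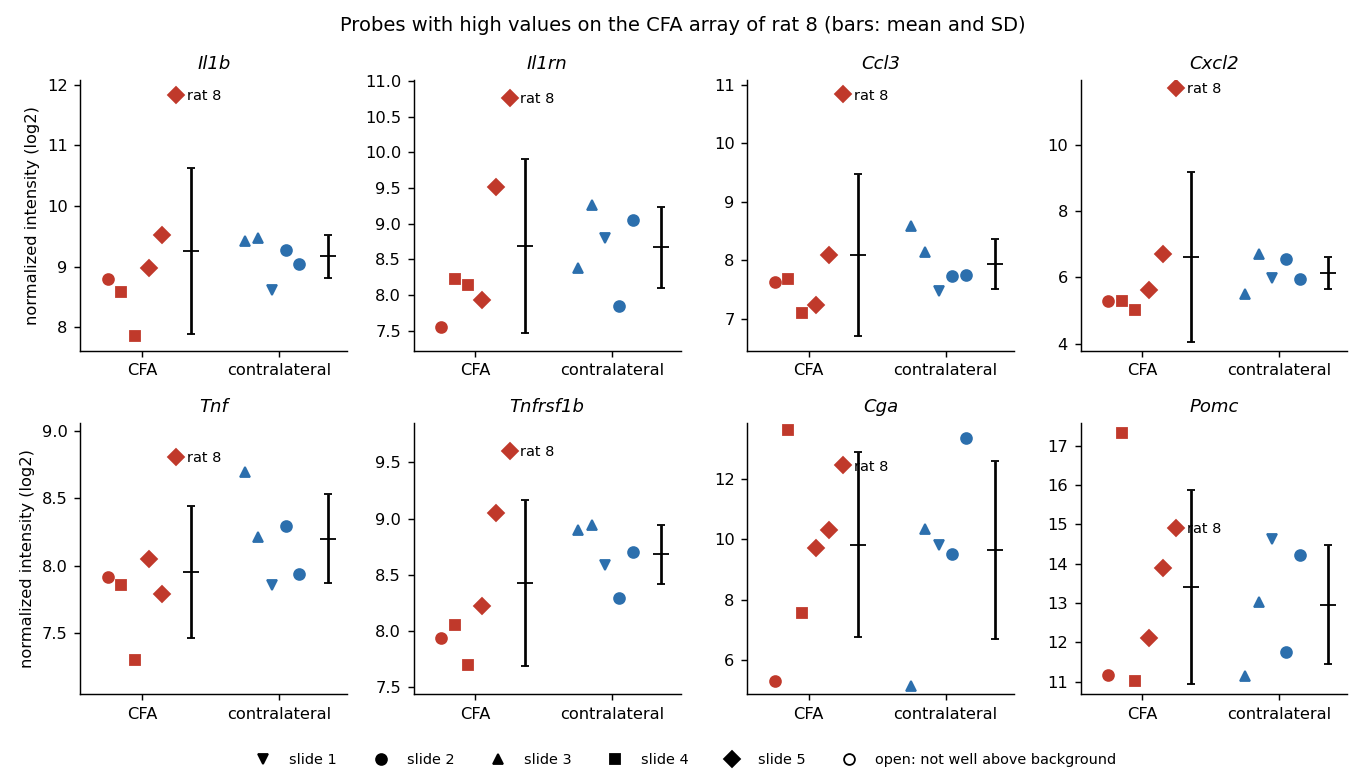
Normalized log2 intensity, with 1 point per ganglion, of Il1b, Tnf and Tnfrsf1b, of the related Il1rn, Ccl3 and Cxcl2, and of the pituitary genes Cga and Pomc, on the 6 CFA and the 5 contralateral arrays, with group mean and SD as bars. On the CFA array of rat 8 Cxcl2 has 11.70, against at most 6.70 elsewhere. Cga has 12.45 and Pomc 14.92 there, and both are highest on the CFA array of rat 2.

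On the array of rat 8 the summed markers of most other cell types lay within the range of the other arrays. The sums for Schwann cells and T cells were the lowest of all 11, but a sum is led by its brightest probes. Marker by marker, the median difference from the median of the other arrays was 0.0046 for 7 Schwann cell markers, 1 of them highest there. It was -0.19 for the 7 T cell markers well above background on every array. The summed linear level of 10 macrophage markers was 58623 on it, within the range of 39197 to 61351 on the CFA arrays and 44490 to 65352 on the contralateral arrays, and 1 of the markers (Cd163) was well above background on no array. The 4 neutrophil markers measured summed to 34004 on it, with 6773 to 85794 on the CFA arrays and 7717 to 68533 on the contralateral arrays. The 7 Schwann cell markers summed to 647587 on it, with up to 796235 on the other CFA arrays and 681201 to 764170 on the contralateral arrays, and the 8 T cell markers to 2787, with up to 3811 on the other CFA arrays and 3349 to 3727 on the contralateral arrays. The 6 satellite glia markers measured summed to 46553, the lowest of the CFA arrays (up to 107088), with 43811 to 81000 on the contralateral arrays. Markers of the anterior pituitary, a gland that lies beside the ganglion, were also present. Their sum was 55039 on the array of rat 8, with 4218 to 307449 on the CFA arrays and 2854 to 107239 on the contralateral arrays, and 5 of the 7 markers were well above background on every array. Cga, the common subunit of the glycoprotein hormones, had 12.45 on the array of rat 8, which was 2.70 above the median of the other arrays. By this difference Cga ranked 4 and Pomc (2.35) ranked 11 among the 11085 named genes well above background on every array. For the 5 pituitary markers so detected the median of this difference was 1.45. On the CFA array of rat 2 Cga had 13.60, Il1b 8.59 and Cxcl2 5.30. The part of these cells in the values of Il1b was not tested.

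Across the 11 arrays the 7 members well above background on every array form 21 pairs, and Pearson's r was highest between Il1b and Tnfrsf1b (0.86, Spearman's rho 0.91) and between Il1b and Tnf (0.81, rho 0.64). It was 0.71 (rho 0.51) between Tnf and Tnfrsf1b and 0.62 (rho 0.74) between Il18 and Tnfrsf1b. These are descriptions over 11 arrays that share slides and rats, with no test. The order depended on the CFA array of rat 8. Without it, Il18 and Tnfrsf1b had the highest r (0.84), Il1b and Tnfrsf1b had 0.83, Il1b and Tnf 0.76 and Tnf and Tnfrsf1b 0.54. Without the 2 arrays farthest from the median of the first gene of each pair, r was 0.74 for Il1b and Tnfrsf1b, 0.53 for Il1b and Tnf, 0.44 for Tnf and Tnfrsf1b and 0.37 for Il18 and Tnfrsf1b. Il10 and Il6r varied in opposite directions (r = -0.74), which became -0.31 without the 2 arrays farthest from the median of Il10.

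The promoters of the 3 cytokines highest on the array of rat 8 are shown because Il1b, Il6 and Tnf are classical targets of NF-kB. The part of NF-kB in the values of that array was not tested. They are the 250 bases before the transcription start in RefSeq (rat assembly GRCr8, chr3:137036582-137036831 on the minus strand for Il1b, chr4:5894576-5894825 on the minus strand for Il6 and chr20:3626435-3626684 on the plus strand for Tnf), and capitals mark the motifs found.
Il1b: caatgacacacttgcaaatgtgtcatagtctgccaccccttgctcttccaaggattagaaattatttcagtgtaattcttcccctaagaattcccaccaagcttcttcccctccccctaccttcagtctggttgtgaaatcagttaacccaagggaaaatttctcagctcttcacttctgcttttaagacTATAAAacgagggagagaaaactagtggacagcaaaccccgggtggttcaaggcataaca
Il6: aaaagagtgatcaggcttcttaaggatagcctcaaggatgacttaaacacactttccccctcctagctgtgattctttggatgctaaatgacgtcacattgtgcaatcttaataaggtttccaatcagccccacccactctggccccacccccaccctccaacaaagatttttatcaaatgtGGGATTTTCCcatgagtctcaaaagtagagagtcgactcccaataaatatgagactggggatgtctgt
Tnf: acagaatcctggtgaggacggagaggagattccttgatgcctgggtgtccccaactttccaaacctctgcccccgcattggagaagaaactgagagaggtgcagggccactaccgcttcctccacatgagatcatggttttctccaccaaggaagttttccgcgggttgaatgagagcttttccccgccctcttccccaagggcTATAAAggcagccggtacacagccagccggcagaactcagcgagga
The motifs searched on both strands were the NF-kB consensus and the TATA box TATAAA, which do not overlap here. With the base before the start as position -1, the first was found in Il6 from position -68, and the second in Il1b from -60 and in Tnf from -46. Of the 9 genes, 8 had a promoter sequence in the table (Il10 had none), and 1 of the 8 held the first motif and 2 the second, compared with 3.54% and 12.9% of 33469 rat promoters of this length. A match is no more than these letters, and other forms of the NF-kB site were not searched.

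Outside the set, the genes whose pattern over the 11 arrays was most like that of a member were named by a rule, as the 3 with the highest Pearson's r. For Il1b they were Ccl3 (r = 0.95), the potassium channel gene Kcnq1 (0.94) and Cxcl2 (0.94). Without the CFA array of rat 8 the values were 0.80, 0.77 and 0.75. For Tnf they were Snx20 (0.95), Cnksr2 (0.93) and Zfp410 (0.92), and for Tnfrsf1b C10h17orf58 (0.93), Snap23 (0.92) and Neurl3 (0.92). For Il10 they were the homeobox gene Hoxd10 (0.99), Lce1e of the skin barrier (0.98) and the odorant receptor gene Or2ag2b (0.98), whose own differences between the sides were -0.91, -1.07 and -0.90. Their probes lie in rows 390, 509 and 428 of the array. For Il18 they were the copper-binding ceruloplasmin gene Cp (0.96), Mdfi (0.95) and the macrophage mannose receptor gene Mrc1 (0.95). For Il6r they were Rgs18 (0.95), Elf1 (0.95) and Tcaim (0.94), and for Tnfrsf1a Fitm2 (0.94), Rtn4 (0.94) and Klf14 (0.94). The highest of so many correlations over 11 arrays is high by selection.

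The wider cytokine pathways were examined through 13 lists of 209 genes, of which 157 were measured. Of these, 1 was higher and 1 was lower on the CFA side at the threshold of the study (1.27%, against 2.02% of all probes), and 155 did not pass it. An unadjusted p of 0.05 or less was found for 13 (5 higher, 8 lower), or 8.28% against 10.8% of all probes, and none passed an adjusted p of 0.05 in limma. The median difference was -0.03, beside -0.04 over all probes.

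Among ligands and regulators of the interleukin-1 family, 1 of 9 genes passed, Il36a, an epithelial member of the family. It had 2.91, 2.85, 3.08, 3.02, 3.08 and 3.05 in the CFA ganglia of rats 1, 2, 3, 5, 6 and 8, against 2.42, 0.99, 0.99, 0.96 and 2.69 in the contralateral ganglia of rats 1, 2, 3, 5 and 6. The groups did not overlap, as was so for 1.2% of all probes (unadjusted p = 0.00141, adjusted p = 0.241 from limma). However, the spot was detected on only 2 of the 6 CFA arrays and on none of the 5 contralateral arrays. Values not well above background have no reliable order. The CFA mean of 3.00 was below the lowest level well above background on the contralateral arrays (mean 3.11), so no fold change is given. None of the 5 interleukin-1 family receptors measured passed, and the smallest p was that of Il1rl1, the receptor of interleukin-33 (difference -0.71, unadjusted p = 0.0459, adjusted p = 0.459 from limma). Il1r1 and Il18rap of that list had no named probe. Il1rl1 had 2 probes, of which only the brighter is given, and that probe was well above background on 5 of the 6 CFA arrays. In the inflammasome and interleukin-1 signalling list 0 of 11 measured genes passed, and Nlrp3, Nlrc4, Aim2 and Gsdmd had no named probe. The caspase gene Casp1 had a difference of -0.28 and the adaptor gene Pycard one of 0.04. The adaptor Myd88 had the smallest p in that list (difference -0.26, unadjusted p = 0.0314, adjusted p = 0.440 from limma), with 11.80 to 12.31 in CFA ganglia and 12.19 to 12.42 in contralateral ganglia.

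Genes around interleukin-6 did not pass the threshold. This was so for 6 of 6 family ligands measured, with the smallest p for oncostatin M (Osm, -0.54, adjusted p = 0.622 from limma), and for 4 of 4 receptors, with the smallest p for the ciliary neurotrophic factor receptor (Cntfr, 0.28, unadjusted p = 0.0377, adjusted p = 0.451). Of the 8 genes of JAK and STAT3 signalling none passed. Socs1 and Socs3, feedback inhibitors of JAK signalling, had differences of opposite sign, 0.43 (adjusted p = 0.467 from limma) and -0.32.

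In the tumour necrosis factor superfamily 0 of 11 ligands and 0 of 16 receptors passed the threshold. Lymphotoxin beta (Ltb) had the smallest p among the ligands (-0.27, adjusted p = 0.468 from limma) and the death receptor Tnfrsf21 among the receptors (-0.30, adjusted p = 0.493). Of the 13 genes measured between these receptors and NF-kB none passed either. Genes of that list without a named probe included Adam17, Tradd, Nfkb1, Rel, Relb and Tnfaip3. The inhibitor kinase Ikbkb had the smallest p (-0.15, adjusted p = 0.530 from limma), and Nfkbia, an inhibitor that NF-kB itself induces, had a difference of -0.08. In the interleukin-10 family 0 of 6 passed, and its receptor chains had differences of -0.26 (Il10ra) and -0.24 (Il10rb, unadjusted p = 0.0466, adjusted p = 0.459 from limma).

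Of 23 other cytokines 1 passed the threshold, Il12b, the subunit that interleukin-12 and interleukin-23 share. It had 4.84, 2.58, 4.83, 4.48, 3.45 and 3.74 in the CFA ganglia of rats 1, 2, 3, 5, 6 and 8, against 5.38, 5.23, 5.55, 5.05 and 4.65 in the contralateral ganglia of rats 1, 2, 3, 5 and 6. The lowest array was the CFA array of rat 2, and the 2 highest CFA values overlapped the contralateral ones. The difference was -1.18 (standard error 0.39, unadjusted p = 0.0120, adjusted p = 0.389 from limma), and it was -0.89, short of the fold limit, without that array and -0.011 within slide 2. None of the 21 other cytokine receptors passed, Ifngr2 of the interferon-γ receptor having the smallest p (-0.32, adjusted p = 0.437 from limma). Of the 24 cytokine-induced genes none passed, and the smallest p was that of the prostaglandin E synthase Ptges (-0.30, unadjusted p = 0.0295, adjusted p = 0.435 from limma). Macrophage markers gave 0 of 10 past the threshold, with a median difference of -0.08. Their differences ran from -0.33 (Cx3cr1) to 0.24 (Cd163, well above background on no array), with -0.13 for Aif1 and 0.19 for Cd68.

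**Figure D4:**
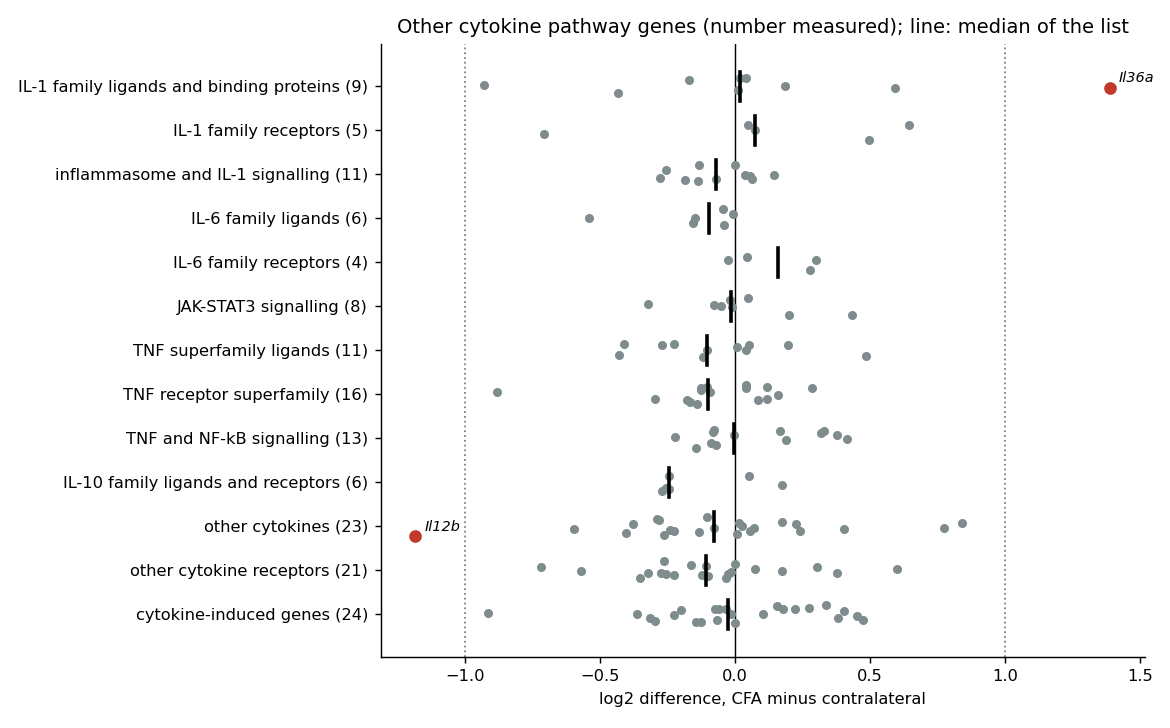
Log2 difference, CFA minus contralateral, of the 157 measured genes of 13 cytokine pathway lists, with 1 point per gene, the median of each list as a black line and dotted lines at a fold change of 2. The 2 red points are the genes past the threshold of the study, Il12b at -1.18 and Il36a, which is drawn at its measured values although its spot was well above background on none of the 5 contralateral arrays.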

How the data were processed

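The authors deposited linear intensity values of each of the 11 arrays as the output of their scanner program (Agilent Feature Extraction 11.0.1.1, background subtracted and spatially detrended) and a table of intensities normalized by quantiles, used as an alternative. How that table combined spots is not stated. Of 43553 spots 1417 controls were left out, and outlier spots were set to missing. The log2 processed signal of the other 42136 was quantile normalized and averaged per probe. All 24684 probes were fitted in limma 3.58.1 (R 4.3.3) without covariates, since the methods name limma and no pairing, with Benjamini-Hochberg adjustment. Single genes had a two-sided exact permutation test over 462 splits (smallest p 0.00216). The script was tested on simulated data.

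Probes were named by accession through RefSeq of a later assembly than the headers' rn4, and of several probes of a gene the brightest on average was taken. Named were the 9 members, from each pathway list the genes past the threshold or else that with the smallest p, and the 3 genes most correlated with each member detected on every array. Members, lists and rule were chosen with earlier results of these data known, and Il1rn, Il1a, Pomc, Cga, Ccl2, Icam1, Ptgs2 and single genes given as examples after their values were seen. Equal rat numbers mark the same animal. The sides of a rat, which lay on different slides, correlated at -0.083 to 0.13 across probes after removal of group means, and 0 of 5 CFA arrays correlated best with their own rat. Alternatives varied the background correction (on the median spot signal), scaling, filter, outlier spots, spot summary, variance trend, rat, slide or scan day in the fit, and the arrays left out. Removing row bands was added after the data were seen.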

Additional observations from a re-analysis of the deposited data

Results flagged for a closer look

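In 44 groups of 5 or 6 arrays, of the members and of the named pathway genes, the gap between an extreme array and its neighbour was compared with the range of the group, and 3 groups held an array that stood apart by Dixon's limit, where chance gives about 1 in 20. Il10 was at 6.37 on the CFA array of rat 1, far above the other CFA arrays. Il18 was at 9.56 on the contralateral array of rat 5, below the other contralateral arrays. Ltb was at 11.36 on the CFA array of rat 3, below the other CFA arrays. The arrays of rat 1 (CFA) and rat 5 (contralateral) both lay on slide 2. The part of the slide in these values was not tested.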

How the results depend on the processing

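The count of cytokine and receptor genes past the threshold of the study was 0 of 9 in 24 alternatives and 0 of 7 with the filter on dim probes, which removes Il6 and Il6st, and their median difference stayed negative in each (-0.33 to -0.11 over the arrays left out). Over all probes, 498 passed as reported, 47 without background correction, 16 with normexp, 314 with a filter on dim probes, 233 with slide as a random effect, 315 with row bands removed and 326 to 796 leaving out 1 array, the extremes leaving out contralateral rat 1 or rat 6 (781 leaving out contralateral rat 5). Of the pathway genes, 2 passed in the main fit, 0 without background correction, 0 with normexp, 1 with the filter, 1 with slide as a random effect and 1 with row bands removed. Leaving out 1 array gave 1 to 5 (1 without the CFA array of rat 2, 4 without the contralateral array of rat 6, 5 without the CFA array of rat 6).

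With a replicate block for the rat, 370 probes, 0 of the 9 genes and 2 pathway genes passed, and the difference of Il1b turned to -0.42. With slide as a block the differences turned to -0.37 for Il1b, -0.97 for Il6, 0.25 for Il10, -0.99 for Il6r, 0.23 for Il6st, 0.022 for Ltb, 0.086 for Tnfrsf21, 0.0092 for Ikbkb and 0.093 for Ifngr2. With scan day as a block they turned to -0.38 for Il1b, -1.24 for Il6, 0.28 for Il10, -0.77 for Il6r, 0.032 for Il6st and 0.0096 for Tnfrsf21. Both contrasts rest on few arrays, slide on slide 2 alone. With slide as a random effect the sign turned for Il1b (-0.084) and Il6r (-0.18). The small difference of Tnfrsf1a turned to -0.099 without background correction, -0.098 with normexp, -0.015 with scaling to the 75th percentile and -0.0011 with row bands removed, where Il1b had -0.20. Leaving out 1 array moved Il1b between -0.42 and 0.38, Il6r between -0.025 and 0.30 and Tnfrsf1a between -0.0073 and 0.12. Tnf, Il18 and Tnfrsf1b kept their sign in all 25 alternatives. Il36a no longer passed the threshold without background correction, with normexp or with slide or scan day as a block, and was removed by the filter on dim probes. Il12b no longer passed without background correction (-0.48), with normexp (-0.29), with slide or scan day as a block (-0.011 and -0.33), with slide as a random effect (-0.88), with row bands removed (-0.85) and without the CFA array of rat 2 (-0.89). The cause of these shifts was not tested.

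Limits: with 6 arrays against 5, each gene rests on 1 spot per array, Il6 and Il6st lay near background, and only slide 2 held both sides. The CFA side was measured against the other ganglion of injected rats, so a change shared by both sides is outside this comparison.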
